A study of Mus musculus with 7 samples.

Results

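Adult mouse lung was compared with adult mouse esophagus, 2 organs that separate from a single tube in the embryo. The series holds 7 one-colour microarrays of total RNA, and this comparison uses 2 of them, 1 for adult lung and 1 for adult esophagus. Both organs were taken fresh from ICR mice, an outbred strain, and the labels name no treatment or mutation for either. The number, sex and age in weeks of the animals, and which of the RNA kits named in the protocol served which organ, are not given. The remaining arrays hold adult stomach and intestine, which lay on the same slide and are used here for reference levels, and embryonic or stem-cell-derived stomach tissue, which is not used. Genes were chosen by signal: of 17047 genes that a probe could be named for, 14520 were well above background, as the scanner software flags it, on at least 1 of the 2 arrays, and these were compared. Of these, 12940 were above background on both arrays.

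Each level below is the log2 of a gene's processed signal minus the 75th percentile of its array, so that 0 is the signal at that percentile. Each difference is the lung level minus the esophagus level, on which 1 stands for 2-fold. A gene below background on 1 array has only a bound, written "at least", taken against the lowest signal above background on that array. Levels of different genes come from different probes and are not compared with each other. With 1 array a side there is no replicate error, no test and no p-value, and their number sets how precise any value can be. Repeated spots of a probe had a median standard deviation of 0.086 on the lung array and 0.097 on the esophagus array. Different probes of a gene gave differences with a standard deviation of 0.52, measured over 4396 genes. Both values describe the array alone and leave out differences between animals. These are whole organs, so fewer cells of a type and less RNA per cell cannot be told apart.

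The lung is lined by thin alveolar type 1 cells, which exchange gas, and by type 2 cells, which secrete surfactant, the lipid and protein film that keeps air spaces open. Its airways carry ciliated cells and club cells, and its walls hold a dense net of capillaries. The mouse esophagus is lined by a stratified squamous epithelium that cornifies at the surface, and its muscle coat is striated, like skeletal muscle, over most of its length.

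A flaw in the arrays bears on single genes and is given first. The scanner software flagged 728 spots on the lung array as outliers, against 243 in esophagus, 80 in stomach and 40 in intestine, and the lung spots formed a curved streak. Flagged spots were left out, but unflagged spots beside them differed from the rest of the array. Among 773 compared genes whose lung spot had 2 or more flagged spots close by, 14.5% were at least 4-fold higher in lung, against 7.59% of the rest. On the esophagus array, 28 of 233 such genes were at least 4-fold higher in esophagus, against 7.64% of the rest. Of the 20 genes above background on both arrays with the largest lung excess, 9 lay beside flagged spots. Stk32a, for example, read 5.76 in lung and -5.02 in esophagus, and no other spot of it was left to check. Cd244a had a difference of 8.74 on such a spot and 2.55 on another probe. Genes on such spots are marked below where they are named. The lists below are counted with them, and counts without them are given beside the lists that lost members.

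**Figure D1:**
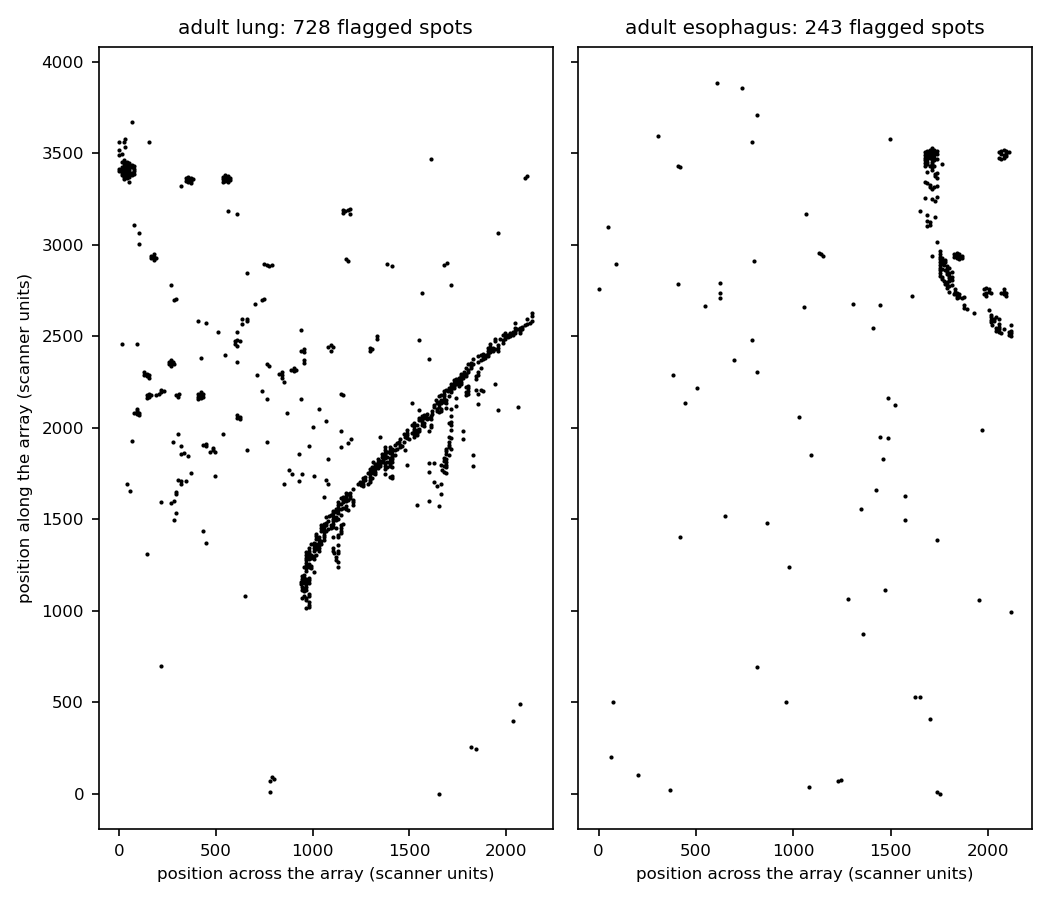
Positions of spots flagged as outliers on the adult lung array (728 spots, left) and the adult esophagus array (243 spots, right), in scanner position units along both axes; each point is 1 spot. The lung array carries a curved streak from its middle to its right edge, and the esophagus array a shorter group at its upper right.

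The 2 organs differed widely in both directions. At least 4-fold higher in lung were 1155 genes (7.95% of those compared), and 1120 genes (7.71%) were at least 4-fold higher in esophagus. The median difference over all genes compared was -0.03, and 65.2% of genes lay within 2-fold. At 2-fold, 17.3% of genes were higher in lung and 17.6% in esophagus. The 2-fold counts of the lists below are to be read against these shares. The largest differences were on the esophagus side: 66 genes were at least 256-fold higher in esophagus and 4 in lung. All 4 lung genes (Stk32a, Cd244a, Moxd2 and Gria4) lay beside flagged spots, and without such spots the counts were 63 and 0. Of those past 16-fold, 384 were higher in esophagus and 254 in lung. Other probes of the same gene, where measured, gave the same direction for 339 of 352 (96.3%) on the esophagus side and 350 of 385 (90.9%) on the lung side. Without the spots beside flagged ones, 1049 genes were at least 4-fold higher in lung and 1078 in esophagus.

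**Figure D2:**
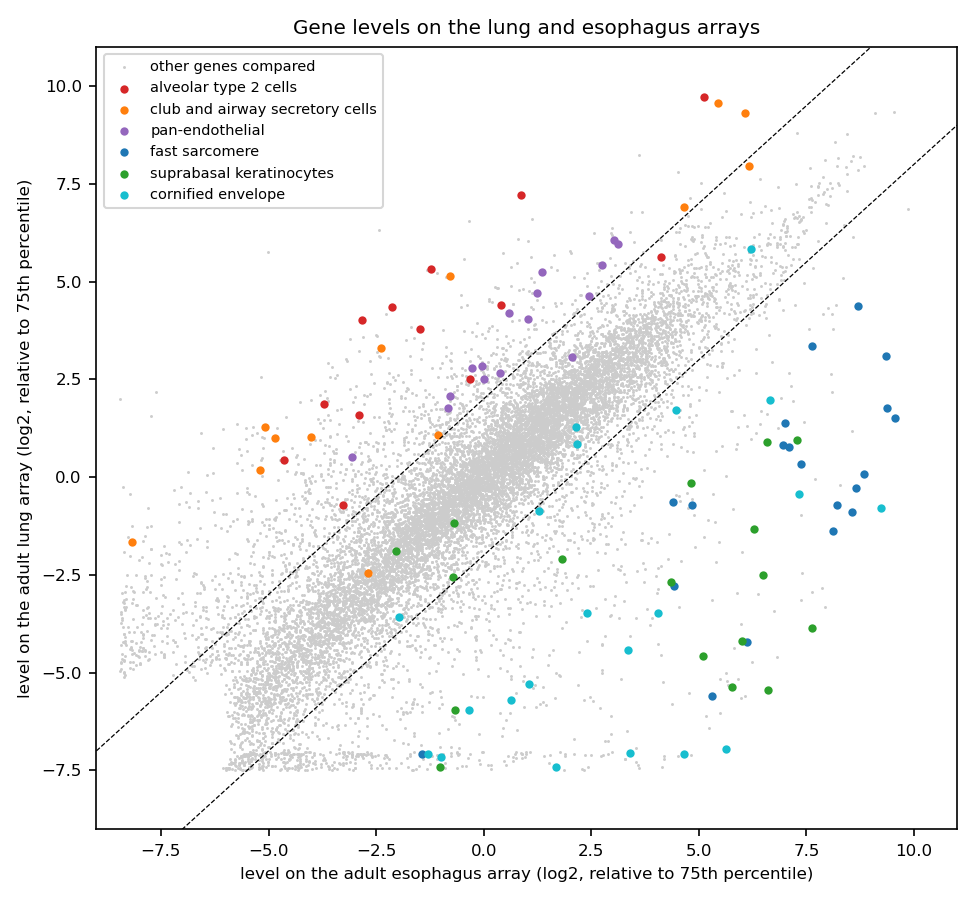
Level of each compared gene on the adult esophagus array (x axis) and the adult lung array (y axis), both log2 relative to the array's 75th percentile, 1 array each; dashed lines mark 4-fold, grey points are other genes and colours are 6 gene lists. Surfactant, airway and endothelial genes lie above the diagonal, and fast sarcomere and squamous genes far below it, where 66 genes pass 256-fold.

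Several of these groups have known regulators, so the 250 bases before the transcription start were searched for short motifs. A RefSeq promoter (GRCm38.p6, first start listed) was matched for 11543 of the 14520 genes compared. The E-box form CAGCTG, of the kind bound by myogenic factors such as MyoD, was present on either strand in 23 of 52 muscle promoters (44.2%), against 12.8% of all 27025 promoters in the table. The AP-1 site TGANTCA was present in 12 of 36 squamous promoters (33.3%), against 6.87% of all. The TATA box TATAAA was present in 13 of these 36 (36.1%), against 13.0% of all. Both squamous counts include Sprr1a, Sprr1b, Sprr2b, Sprr2d and Sprr2e. These are related genes of the same family, counted here as separate promoters although they are not independent. GTTGCC, a half-site of the RFX factors that act on cilia genes, was present in 8 of 16 motile cilia promoters (50.0%), against 10.5% of all. The forms CTCAAG, resembling an NKX2-1 core, and TGTTTAC, a forkhead site, were present in 6 and 3 of 28 alveolar and airway promoters (21.4% and 10.7%), against 13.6% and 3.09% of all. The seventh motif, the M-CAT core CATTCC, was in 19.2% of muscle promoters, 21.4% of alveolar and airway promoters and 12.6% of all. CAGCTG was also in 9 of 36 squamous promoters, TGANTCA in 18.8% of motile cilia promoters, and TATAAA in 21.4% of alveolar and airway promoters. None of the 7 motifs contains another, all occur in many promoters, and a match is a string of letters and not a shown binding site.

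The 150 bases before the start are printed for 7 genes that carry the motifs, 5′ to 3′ on the gene's own strand. The motifs named for each gene are in capitals. All but Sprr1a and Tekt1 recur below, and Sprr1a was 4.04 in esophagus and -3.47 in lung. Mylpf, a fast myosin light chain, lies at chr7:127211458-127211607 on the plus strand and carries the E-box 51 bases before the start.
Mylpf: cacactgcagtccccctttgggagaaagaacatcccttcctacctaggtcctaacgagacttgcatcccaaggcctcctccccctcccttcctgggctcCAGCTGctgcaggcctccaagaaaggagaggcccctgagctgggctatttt
The squamous genes Sprr1a (chr3:92485882-92486031, minus strand), Lor (chr3:92083143-92083292, minus strand) and Krtdap (chr7:30787755-30787904, plus strand) each combine an AP-1 site with a TATA box. Sprr1a also holds CAGCTG, left in lower case, 33 bases before the start.
Sprr1a: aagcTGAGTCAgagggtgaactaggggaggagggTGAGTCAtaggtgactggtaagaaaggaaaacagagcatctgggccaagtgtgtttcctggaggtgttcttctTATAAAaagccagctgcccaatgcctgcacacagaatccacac
Lor: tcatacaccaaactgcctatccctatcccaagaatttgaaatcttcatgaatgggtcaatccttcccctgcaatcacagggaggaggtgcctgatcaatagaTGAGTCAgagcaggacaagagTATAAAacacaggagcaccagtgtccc
Krtdap: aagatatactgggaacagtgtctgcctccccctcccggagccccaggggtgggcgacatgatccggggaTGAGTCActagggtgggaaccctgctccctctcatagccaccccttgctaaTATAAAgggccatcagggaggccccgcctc
The cilia genes Tekt1 (chr11:72361883-72362032, minus strand) and Dynlrb2 (chr8:116504865-116505014, plus strand) carry the RFX half-site, Tekt1 on both strands.
Tekt1: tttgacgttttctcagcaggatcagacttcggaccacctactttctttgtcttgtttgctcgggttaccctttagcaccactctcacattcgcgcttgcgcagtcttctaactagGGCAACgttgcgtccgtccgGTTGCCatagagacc
Dynlrb2: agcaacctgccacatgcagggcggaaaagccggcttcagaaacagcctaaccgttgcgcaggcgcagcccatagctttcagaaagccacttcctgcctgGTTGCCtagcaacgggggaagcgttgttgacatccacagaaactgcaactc
The surfactant gene Sftpb (chr6:72304460-72304609, plus strand) carries CTCAAG at 100 and at 15 bases before the start. The second copy overlaps a match to TGANTCA that begins 18 bases before the start and is not marked.
Sftpb: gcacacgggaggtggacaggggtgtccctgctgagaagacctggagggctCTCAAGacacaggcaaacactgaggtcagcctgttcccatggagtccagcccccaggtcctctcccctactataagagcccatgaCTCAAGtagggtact

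Alveolar type 2 cell genes had the highest median difference of the lists. All 13 type 2 cell genes compared were at least 2-fold higher in lung, where 17.3% of all genes were, and their median difference was 5.08. The list holds the surfactant proteins and the machinery that makes and stores them. Sftpd, a collectin of innate defence, was 5.32 in lung and -1.23 in esophagus, 93.9-fold apart. Sftpb, needed to spread surfactant lipid, was 4.34 and -2.13. Sftpa1 was 7.21 and 0.87, and its other probe gave a like difference of 6.38. Cxcl15, a lung chemokine, was 4.03 and -2.83, 116-fold apart. The lipid transporter Abca3 (2.52 and -0.31), which loads surfactant into its storage bodies, and the lipid-remodelling enzyme Lpcat1 (1.58 and -2.90) were also higher in lung. Lamp3, of the same storage bodies, differed by 3.98 on a spot beside flagged ones and by 6.54 to 6.84 on its other probes.

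Sftpc, a surfactant protein made by type 2 cells alone in the lung, was well above background in esophagus. Sftpc read 9.71 in lung, 5.12 in esophagus, -0.74 in stomach and -5.24 in intestine, a lung-to-esophagus difference of 24.1-fold. The type 2 genes summed to 10.18 in lung, 5.85 in esophagus, 4.44 in stomach and 4.37 in intestine, as the log2 of their summed signal. All 13 were above background in esophagus, 12 in stomach and 9 in intestine. The source of the type 2 transcripts on the esophagus array was not tested.

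All 10 type 1 cell genes compared were at least 2-fold higher in lung, with a median of 2.18 (9 of 9 and 2.38 without spots beside flagged ones). Ager, a receptor of the type 1 cell surface, was 5.29 in lung and -1.32 in esophagus. The water channel Aqp5 was 5.59 and -0.46, and Gprc5a, a lung-enriched receptor, was 5.74 and 0.44. The growth factor Vegfa, which type 1 cells supply to capillaries, was 5.12 and 2.09. The other 6 genes, among them Hopx, Cav1 and Pdpn, differed by 1.70 to 2.38.

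Of 13 club and airway secretory genes, 12 were at least 2-fold higher in lung and none in esophagus, with a median of 4.47 (11 of 12 and 4.58 without spots beside flagged ones). Scgb1a1, the main club cell secretoglobin, read 9.57 in lung and 5.44 in esophagus. Scgb3a1, another secretoglobin, was 5.14 and -0.79. The airway mucin Muc5b was 1.02 and -4.01, while the gastric-type mucin Muc5ac was low in both (-2.44 and -2.68). Among the enzymes of club cells, the carbonyl reductase Cbr2 was 9.31 in lung and 6.08 in esophagus, and the cytochrome Cyp2f2 was 7.96 and 6.17. In stomach Cbr2 and Cyp2f2 read 4.01 and 4.04, and in intestine 1.81 and -1.88, so the esophagus array stood second for both. The antimicrobial lectin Reg3g was 1.29 in lung and -5.08 in esophagus, but higher still in intestine at 6.54.

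Motile cilia genes were higher in lung for 13 of 19 and higher in esophagus for 1, with a median of 2.61 (12 of 18 and 2.72 without spots beside flagged ones). Foxj1, the master regulator of motile cilia, was 0.74 in lung and below background on the other 3 arrays, at least 116-fold over esophagus. The dynein chains Dynlrb2 (3.61 and -2.47) and Dnali1 (0.56 and -5.65), whose axonemal motor bends the cilium, were 67.5-fold and 74.1-fold higher. Spag6l, of the central pair of microtubules, was -0.25 in lung and below background in esophagus, a difference of at least 5.87. Tppp3, a tubulin-binding protein not confined to cilia, went the other way, at 4.14 in lung and 5.22 in esophagus. The factors Rfx2 (-3.51 and -2.72) and Rfx3 (-3.45 and -4.27) lay within 2-fold.

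**Figure D3:**
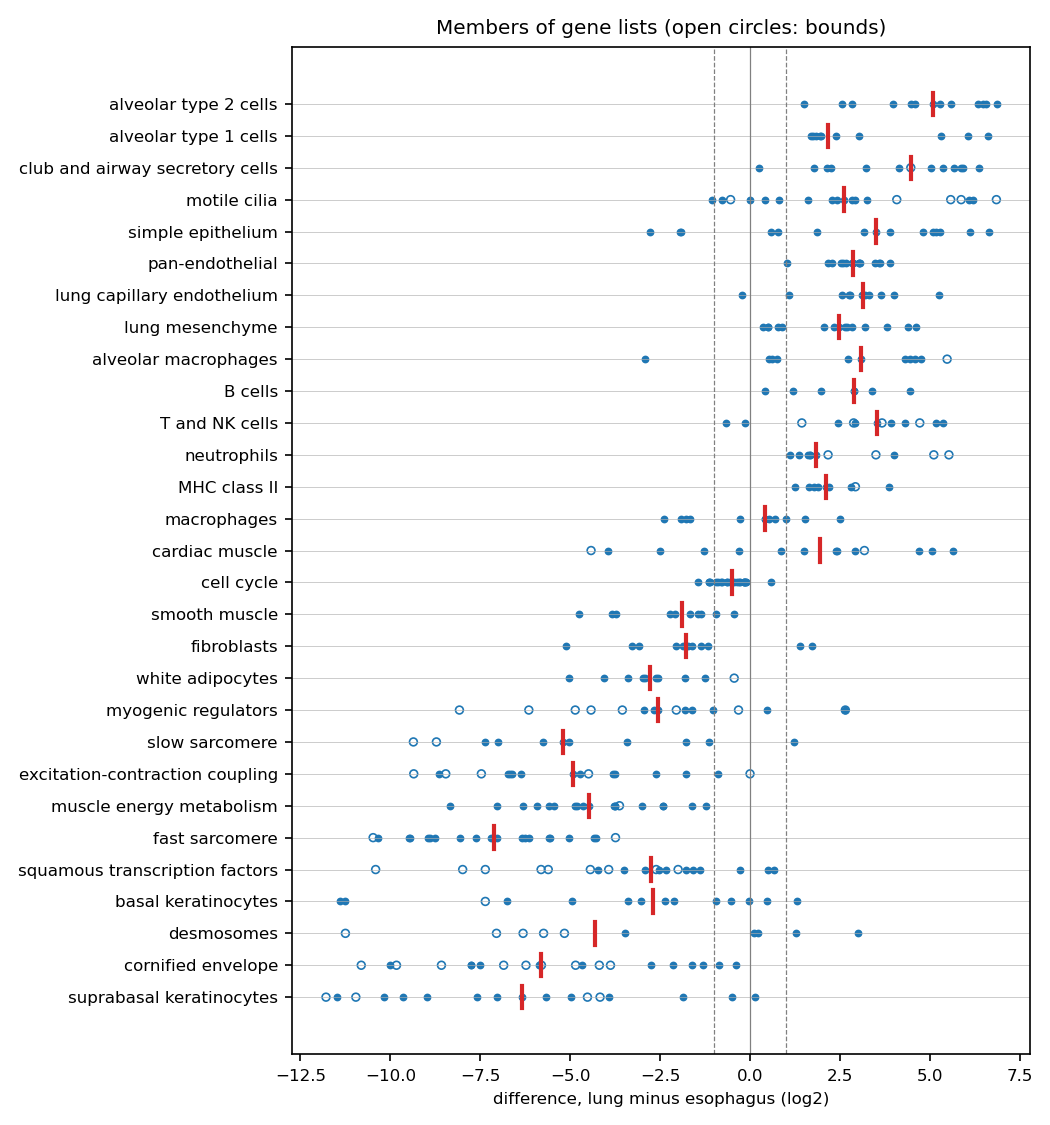
Difference of each member (lung minus esophagus, log2) for 29 gene lists; points are genes, open circles are bounds or genes without a fold, red bars are list medians and dashed lines mark 2-fold. Type 2 cell genes (median 5.08) sit wholly to the right and fast sarcomere genes (median -7.12) wholly to the left, while macrophage and cardiac genes fall on both sides.

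Simple-epithelium genes separated the linings further. Of 15, 10 were higher in lung and 3 in esophagus, with a median of 3.51. Without spots beside flagged ones, 10 of 13 were higher in lung and 1 in esophagus. The keratins of single-layered epithelia, Krt8 (4.41 in lung and -0.39 in esophagus), Krt18 (4.82 and 0.92), Krt19 (4.31 and 1.15) and Krt7 (3.55 and -1.62), were all higher in lung. Some tight-junction claudins were also higher in lung: Cldn18 was 3.53 and -3.10, 99.6-fold apart, Cldn7 was 2.56 and -3.57, and Cldn3 was 2.32 and -2.96. Cldn4 was higher in esophagus, at -4.87 in lung and -2.10 in esophagus. Over the whole claudin family, 5 of 16 were higher in lung and 4 in esophagus (median 0.12), Cldn17 and Cldn23 among the 4. The shares of all genes were 17.3% and 17.6%. Epcam (-0.48 and -1.05) and Cdh1 (1.87 and 1.09, beside flagged spots in esophagus), adhesion molecules shared by simple and stratified epithelia, lay within 2-fold.

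Most endothelial genes were higher in lung. Genes of pericytes, another vascular cell type, were split: of 10, 4 were higher in lung and 3 in esophagus (median -0.24). Gucy1a1 was 3.34 in lung and 0.30 in esophagus, and Rgs5 was -2.37 and 3.16. All 16 pan-endothelial genes were at least 2-fold higher in lung (14 of 14 without spots beside flagged ones), with differences from 1.03 for Emcn to 3.88 for Cldn5 and a median of 2.86. The junction genes Cdh5 (4.21 and 0.59) and Cldn5 (5.24 and 1.36) and the growth factor receptor Kdr (4.71 and 1.23) were 12.3, 14.8 and 11.1-fold higher. Vwf, the clotting factor carrier, was 5.96 and 3.13, and its other probe gave 2.82. Of 12 lung capillary genes, 11 were higher in lung, with a median of 3.14, and Fibin was 2.99 and 3.19. Car4, a carbonic anhydrase of the capillary surface that also lines some gut cells, was 2.63 in lung, -2.62 in esophagus and 1.19 in intestine. Gpihbp1, which holds lipoprotein lipase on capillaries, was 5.08 and 1.09. Arterial Notch genes moved the same way, with Notch4 at 3.33 and -0.88, Dll4 at 0.44 and -3.49, and Hey1 at 3.93 and -0.15. Of the lymphatic markers, Lyve1 was 4.02 and 1.35, Flt4 was -3.13 and -4.83, and Reln was higher in esophagus at -1.84 and -0.62, while Prox1, which defines lymphatic endothelium, was below background on both arrays.

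Lung mesenchyme was also marked. Of 15 genes, 10 were higher in lung and none in esophagus, with a median of 2.47. Inmt, a methyltransferase of lung stroma, was 8.23 in lung and 3.60 in esophagus, and the integrin Itga8 was 4.50 and 0.12. The limb and lung factors Tbx5 (1.35 and -0.98) and Tbx4 (-2.51 and -5.20) were above background in both organs but not in stomach or intestine. Tbx3 (4.58 and 4.23) and Meox2 (1.22 and 0.71) lay within 2-fold. The growth factor Fgf10 also did, at -1.12 and -1.61 on a lung spot beside flagged ones.

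Of 7 B cell genes, 6 were higher in lung (median 2.88), and of 13 T and NK cell genes, 11 were (median 3.54), with none higher in esophagus. Without spots beside flagged ones these counts were 5 of 6 and 10 of 12. Ms4a1 of B cells was 1.61 in lung and -1.29 in esophagus. Lck, the T cell kinase, was 0.37 and -3.56, and the granzyme Gzma was 0.44 and -4.74. All 11 neutrophil genes were higher in lung (median 1.83), or 8 of 8 without spots beside flagged ones, such as S100a8 at 2.25 and -1.75. All 9 MHC class II genes were higher in lung (median 2.10), including the invariant chain Cd74 at 5.48 and 3.29. The globins, which report red cells, differed little: Hba-a1 was 8.78 and 8.44.

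Alveolar macrophage genes were higher in lung for 7 of 11 (median 3.09), or 6 of 10 without spots beside flagged ones, with Siglecf at -0.64 in lung and below background in esophagus, Ear1 at 2.61 and -1.98, and Itgax at 2.64 and -1.68. Fabp4, which adipocytes also make, was 1.87 and 4.80. Of 12 general macrophage genes, 2 were higher in lung, near the 17.3% of all genes, and 4 in esophagus, against 17.6% (median 0.41). Without spots beside flagged ones, 1 of 11 was higher in lung and 4 in esophagus. The 4 were the complement subunits C1qa (0.89 and 2.66), C1qb (-0.19 and 1.73) and C1qc (1.51 and 3.17) and the scavenger receptor Cd163 (-1.80 and 0.59). Csf1r (2.27 and 1.86) and Adgre1 (1.17 and 1.44), expressed across macrophages, lay within 2-fold.

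Of 26 genes of foreign-compound metabolism, 14 were higher in lung and 5 in esophagus (median 1.56), or 13 and 5 of 24 without spots beside flagged ones. Of all genes, 17.3% and 17.6% were. The aldehyde oxidase Aox3 (0.74 and -5.13) and the cytochromes Cyp2b10 (2.13 and -2.65) and Cyp4b1 (5.73 and 2.04) were higher in lung. Aldh3a1, an aldehyde dehydrogenase of surface epithelia, was -3.86 in lung and 1.82 in esophagus, and the quinone reductase Nqo1 was -2.84 and 0.74. In stomach Aldh3a1 read 0.70 and Nqo1 read 4.26. Outside this list, the complement component Hc was 5.21 in lung and -1.09 in esophagus, and the calcium-binding protein S100g was 3.59 and -2.80.

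Squamous epithelial genes included the largest single-gene differences of the comparison. Among suprabasal genes, 15 of 17 were at least 2-fold higher in esophagus, where 17.6% of all genes were, with a median of -6.33. None was higher in lung, and without spots beside flagged ones 14 of 16 were higher in esophagus. Krt4, the keratin that marks the layers above the basal cells of the esophagus, read 6.61 in esophagus and was below background in lung, a difference of at least 3540-fold. Its partner Krt13 was 6.48 in esophagus and -2.50 in lung on one probe, a difference of -8.98, and -11.89 on another. Krtdap, a keratinocyte secreted peptide, was 7.64 and -3.85, and its other probe gave -11.43. The water and glycerol channel Aqp3 was 4.35 and -2.68.

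Basal layer genes were higher in esophagus for 9 of 14 and higher in lung for 1, or 9 and 1 of 13 without spots beside flagged ones. The basal keratins Krt5 (7.94 in esophagus and -3.32 in lung) and Krt15 (6.82 and -4.59) were 2450-fold and 2720-fold higher in esophagus. Trp63, the factor that maintains basal cells, was 2.19 in esophagus and below background in lung, at least 165-fold apart, with -4.66 on another probe. Col17a1 of hemidesmosomes, which anchor basal cells, was 3.14 and -3.61.

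The cornified envelope, the cross-linked protein shell of surface cells, was higher in esophagus for 19 of 21 genes (median -5.80). Lor, its main structural protein in mouse, was 9.23 in esophagus and -0.80 in lung. Sprr3 was 5.63 and below background in lung, at least 1790-fold apart. The cross-linking enzyme Tgm3 was 3.36 and -4.41, and the protease inhibitor Spink5 was 4.65 with lung below background. Late envelope proteins Lce3f (7.64 and -2.93) and Lce3c (7.38 and -3.14) and the protease Asprv1 (6.75 and -3.43) were among the 20 largest esophagus differences of genes above background on both arrays. For Sprr2a1 the probes disagreed, at -0.39 and -7.17; this family has near-identical copies that a probe may not separate. Involucrin, Ivl, was below background on both arrays.

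Among desmosome genes, 6 of 10 were higher in esophagus and 2 in lung. The squamous forms Pkp1 (6.07 in esophagus, below background in lung) and Dsg3 (-0.02, below background in lung) contrasted with Pkp2, which was 1.93 in lung and -1.08 in esophagus. Dsg2 (-2.60 and -2.81, on an esophagus spot beside flagged ones) and Jup (-0.56 and -0.65) lay within 2-fold. Of the 10 differences, 5 are bounds, and among members measured in both organs the median became 0.21 in place of -4.31.

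The squamous genes were also high in stomach. The suprabasal list summed to 9.85 in esophagus, 9.75 in stomach, 2.76 in lung and 4.14 in intestine, and the mouse stomach has a squamous forestomach. Krt5 was 6.31 in stomach, Lor 9.59 and Sprr3 6.41. Krt15 was lower in stomach, at 2.89, as was the factor Pax9, at -4.12. The epidermal keratins Krt1 (7.14) and Krt10 (6.55) read high in stomach, against -2.89 and -2.25 in esophagus.

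**Figure D4:**
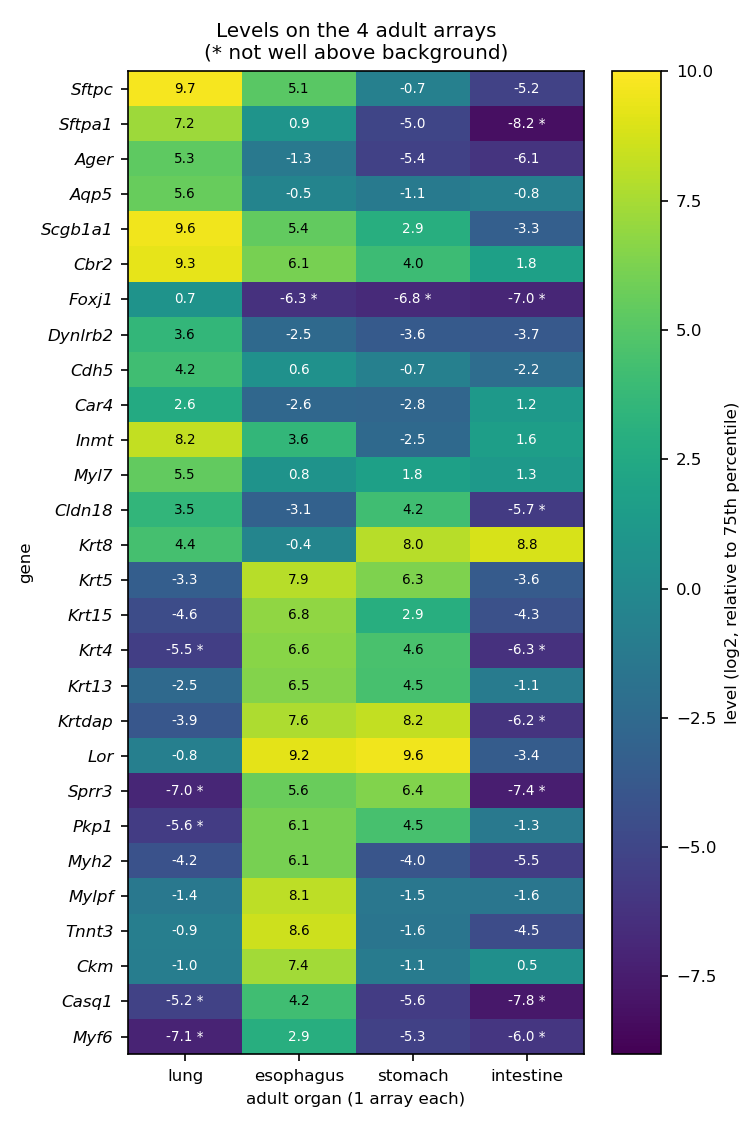
Levels (log2, relative to the 75th percentile, colour and number) of 28 genes on the 4 adult arrays, 1 array per organ; an asterisk marks values not well above background. Colours are to be compared along a row only: Sftpc falls from 9.7 in lung to 5.1 in esophagus and -5.2 in intestine, Lor is high in esophagus and stomach, and Mylpf is high in esophagus alone.

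Striated muscle genes were higher in esophagus, and the fast sarcomere list had the lowest median of all lists. All 20 fast sarcomere genes compared were at least 4-fold higher in esophagus, with a median of -7.12. Myh2, a fast myosin heavy chain, was 6.12 in esophagus and -4.22 in lung, 1300-fold apart. Mylpf, a fast light chain, was 8.11 and -1.38. Troponin T3, Tnnt3, was 8.57 and -0.88, and its other probe gave -8.84. Myot, of the Z disc, was 5.30 and below background in lung. Acta1, skeletal actin, was 8.85 and 0.07.

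Slow-fibre genes were higher in esophagus for 10 of 11 (median -5.20), including the slow troponin Tnni1 (2.74 and -4.27) and the binding protein Mybpc1 (4.18, below background in lung). The slow myosin Myh7 differed less, at 6.08 in esophagus and 4.28 in lung. Tpm3, which non-muscle cells also express, was higher in lung on one probe (1.21) and lower on another (-1.92). Excitation-contraction genes were higher in esophagus for 15 of 17 (median -4.93). The calcium store protein Casq1 was 4.17 and below background in lung, and the voltage sensor Cacna1s was 5.79 and -0.82. All 19 muscle energy genes were higher in esophagus (median -4.48), or 18 of 18 without spots beside flagged ones, among them creatine kinase Ckm (7.37 and -0.97) and myoglobin Mb (8.08 and 2.65). At the neuromuscular junction, the receptor subunit Chrna1 was 2.33 in esophagus and below background in lung. Its partner Chrne, the adult subunit, was -0.52 and -0.47.

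Of the fast sarcomere genes, 18 were above background in lung. The list summed to 12.36 in esophagus, 5.86 in lung, 7.18 in stomach and 7.60 in intestine, sums in which Tpm2 of smooth muscle takes part. Tcap was 4.38 in lung, -1.38 in stomach and 0.71 in intestine. Myh8 was 3.09 in lung, -1.57 in stomach and -3.57 in intestine, and Tnnc2 was 1.51, -2.39 and -2.89. Other members were not higher in lung than in both: Acta1 was 0.07, 2.02 and 3.25, and Myl1 was -0.28, -2.98 and 0.10. Mylpf was alike on the 3 arrays, at -1.38, -1.50 and -1.55. Myf6 and Myog, which define skeletal muscle, were below background in lung. The source of these transcripts was not tested.

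The regulators of striated muscle went with the structural genes. Of 17 compared, 13 were at least 2-fold higher in esophagus and 2 in lung (median -2.56). Of the myogenic basic helix-loop-helix factors, Myf6 was 2.90, Myog 0.97 and Myod1 -1.63 in esophagus, and all 3 were below background in lung. Myf5 was below background on both arrays. The satellite cell factor Pax7 was -2.74 in esophagus and below background in lung. Factors that specify head and pharyngeal muscle went in both directions. Tbx1 was 4.80 in esophagus and 1.83 in lung, and Isl1 was -0.32 in esophagus, with lung below background. Eya1 (0.24 and -2.32) was also higher in esophagus. Pax3, a factor of trunk and limb muscle precursors, was below background on both. Of the same class, Tcf21, which lung mesenchyme also expresses, was higher in lung (1.40 and -1.24), and Lhx2 was -3.47 in lung and below background in esophagus. Msc, also of this class, was -4.86 in esophagus and below background in lung, with a bound of -0.32.

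Cardiac genes, which in mice are also expressed in the muscle sleeve of the pulmonary veins, went in both directions: 8 of 14 were higher in lung and 4 in esophagus (median 1.94). The atrial light chain Myl7 was 5.47 in lung and 0.77 in esophagus, the cardiac binding protein Mybpc3 was 1.75 and -3.31, and Tnni3 was 2.98 and -2.64. In stomach Myl7 read 1.83 and Mybpc3 -4.29, but Tnni3 read 5.20, above its lung level. Mybphl, an atrial relative of the binding proteins, was 0.71 and -5.69. The myosin Myh6 was 3.17 and 2.30, within 2-fold on this probe, and its other probe gave 1.51. Sln, a calcium pump regulator found in atrium and skeletal muscle, was higher in esophagus, at 8.09 against 4.16.

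Smooth muscle genes were higher in esophagus for 8 of 10 and in lung for none (median -1.88), or 7 of 9 without spots beside flagged ones, led by Des (5.55 and 0.79), which striated muscle shares. Acta2 was 7.89 in esophagus and 4.17 in lung, with smaller differences of -2.12 to -1.95 on other probes, and Myh11, more specific to smooth muscle, was 3.96 and 1.73. Stomach and intestine exceeded both for Myh11, at 4.90 and 5.41. Fibroblast genes were higher in esophagus for 10 of 12 and in lung for 2 (median -1.77). Without spots beside flagged ones, 9 of 11 were higher in esophagus and 2 in lung. Pdgfra was higher in lung, at 1.15 in esophagus and 2.87 in lung on a lung spot beside flagged ones. Dcn (8.36 and 5.08) and Col3a1 (6.06 and 4.24) were higher in esophagus. Fat cell genes were higher there too, for 9 of 10 (median -2.77), including the glucose transporter Slc2a4 (5.88 and 0.84), which muscle shares, and the fat droplet protein Plin1 (-0.34 and -3.31). The brown fat protein Ucp1 was -1.93 in esophagus and below background in lung.

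The transcription factors that pattern the foregut were compared as a list of 35, of which 33 could be compared: 15 were at least 2-fold higher in lung and 11 in esophagus (median 0.91). Without spots beside flagged ones, 14 and 11 of 32 were, with a median of 0.73. Over all genes, 17.3% were at least 2-fold higher in lung and 17.6% in esophagus. Nkx2-1, which specifies the lung and thyroid field of the foregut, was 1.29 in lung and -5.36 in esophagus, 99.8-fold apart, and below background in stomach and intestine. Irx1 was 3.23 and -2.90, and Irx2 was 0.87 and -2.46. Foxa2, a pioneer factor of endoderm, was 2.92 and -3.62, a difference of 6.54 beside flagged spots and 6.52 without them. Foxa1 was -0.33 and -2.27, and Gata6 was 1.74 and -0.98 with other probes from -0.37 to 2.44. Cdx2, an intestinal factor, read -0.25 in lung on a spot beside flagged ones, with no other spot to check.

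On the esophagus side, Pitx1 was 5.23 and below background in lung, at least 1360-fold apart, and Pax9 was 2.81 and below background in lung. Pitx1 read 5.30 in stomach, but Pax9 read -4.12 there. Nkx6-1 was 1.32 in esophagus, -2.86 in lung, -2.15 in stomach and -2.31 in intestine. Sox2, which specifies the esophagus against the lung in the embryo, was -0.03 in esophagus and -2.14 in lung, a smaller difference than Nkx2-1 showed in the other direction, and -0.62 in stomach. Barx1, a factor of stomach and esophagus mesenchyme, was -2.87 in esophagus and below background in lung. Foxp1 (2.36 in lung and 1.45 in esophagus), Cebpa (1.55 and 1.07) and Elf5 (0.94 and 0.39) lay within 2-fold.

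**Figure D5:**
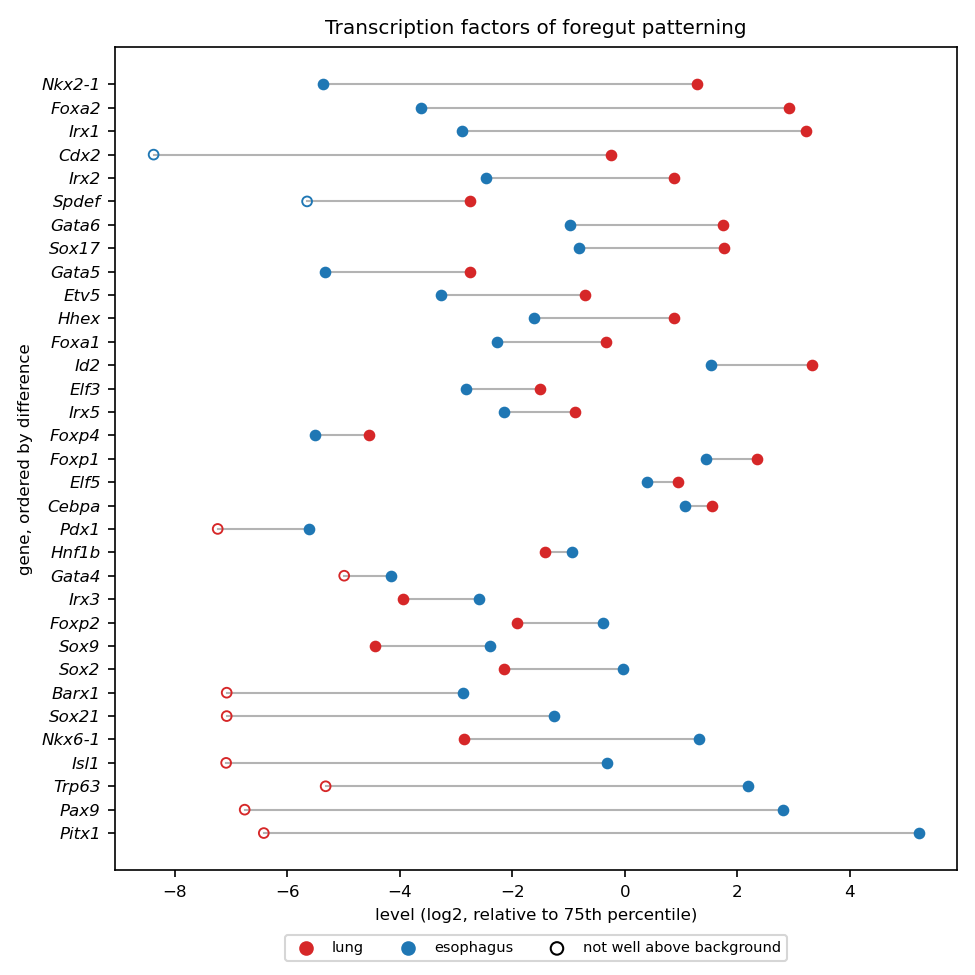
Levels (log2, relative to the 75th percentile) of the 33 foregut transcription factors compared, on the lung array (red) and the esophagus array (blue), 1 array each, ordered by difference; open circles are not well above background. Nkx2-1, Foxa2 and Irx1 stand at the lung end, and Pitx1, Pax9 and Trp63 at the esophagus end, where the lung points are open.

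The squamous transcription factors overlap with this list. Of 20, 17 were higher in esophagus and none in lung (median -2.76). The epidermal factors Zfp750 (1.01 in esophagus and -3.22 in lung), Ovol1 (0.64, below background in lung) and Tfap2c (0.44, below background in lung) belonged to the 17. Klf5 (3.32 and 0.98) and Klf4 (6.18 and 4.40) were present in both organs. Grhl2, a regulator of epithelial junctions, lay within 2-fold at 0.53 and 0.25.

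Signals that pass between epithelium and mesenchyme were compared by pathway. Of 14 hedgehog genes, 3 were higher in each organ and the other 8 were not past 2-fold, shares near the 17.3% and 17.6% of all genes. The ligand Shh was -2.50 in lung and below background in esophagus, and the hedgehog-binding inhibitor Hhip was -1.01 and -4.83. The receptor Ptch1, itself a target, was -1.43 and -2.54 on a spot beside flagged ones, with 1.09 on another spot. The co-receptors Cdon (-3.61 and -1.66) and Gas1 (-1.43 and 0.07) and the effector Gli2 (-4.22 and -3.16) were higher in esophagus. Gli1, the common target used as a readout, was -3.94 and -3.51. Smo, the signal transducer, was 2.72 and 3.45.

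Of 36 Wnt genes, 10 were higher in lung and 12 in esophagus (median -0.48), or 10 and 11 of 34 without spots beside flagged ones. The shares of all genes were 17.3% and 17.6%. The ligands divided: Wnt7a was -0.90 in lung and below background in esophagus, and Wnt2 was 1.31 and -1.16. Wnt4 (1.42 in esophagus and -2.81 in lung), Wnt6 (-0.17 and -4.06), Wnt10a (3.07 and -0.52) and Wnt7b (0.34 and -2.54) were higher in esophagus. Of the secreted inhibitors, Wif1 was 2.60 in lung and -3.42 in esophagus, while Sfrp1 was 2.84 in esophagus and 0.07 in lung. The receptor Fzd10 was 1.50 in esophagus and -4.81 in lung. The nuclear partners Lef1 (0.16 in lung and -4.56 in esophagus) and Tcf7 (-0.14 and -4.02), which T cells also express, and the target Axin2 (-1.15 and -2.31) were higher in lung.

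Among 25 BMP genes, 12 were higher in lung and 8 in esophagus (median 0.97), or 11 and 8 of 24 without spots beside flagged ones. Of all genes, 17.3% and 17.6% were. The ligands Bmp5 (-0.43 in lung and -5.45 in esophagus) and Bmp6 (2.03 and -1.83) were higher in lung, and Bmp7 was higher in esophagus (0.98 and -1.66, beside flagged spots, and -2.42 on another probe). The antagonists Fst (-0.13 in esophagus and -3.56 in lung), Grem1 (0.40 and -2.86) and Sostdc1 (-0.76, below background in lung) were higher in esophagus. The feedback targets Smad6 (2.29 in lung and -2.31 in esophagus), Smad7 (1.61 and -1.46) and Id1 to Id3 were higher in lung. In the retinoic acid list, the storage enzyme Lrat was 0.18 in lung and -5.15 in esophagus, and the binding protein Crabp2 was -0.04 in esophagus and below background in lung.

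Markers of neighbouring organs were checked, since both organs are dissected from the neck and chest. On 1 array or both, 3 of 6 thyroid genes, 3 of 6 thymocyte genes and 4 of 7 gastric gland genes were above background. Of the 3 thymocyte genes compared, 2 (Themis and Cd1d1) were at least 2-fold higher in lung and none in esophagus (median 1.65). The thymocyte list summed to 1.28 in lung, -0.16 in esophagus, -0.77 in stomach and 1.45 in intestine. The thyroid list summed to -3.10 in lung and -3.08 in esophagus. The recombinase Rag1, which defines developing lymphocytes, was below background on both. The gastric genes summed to -1.62 in lung and -1.56 in esophagus, against 12.19 in stomach. Hepatocyte genes were higher in esophagus for 5 of 6 and in lung for none (median -2.38), among them Alb (0.67 and -2.41), Fgb (-1.88 and -4.84) and Ahsg (0.46 and -2.04). The source of these transcripts was not tested. Xist, expressed by female cells, was above background on all 4 adult arrays (0.37 in lung and 1.12 in esophagus). The Y-linked genes Ddx3y, Eif2s3y, Kdm5d and Uty were below background on all 4.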

How the data were processed

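Total RNA of each organ was labelled with Cy3 and hybridised to an Agilent mouse array, per the labels' protocols. The deposited scanner files hold processed intensity per spot, background-corrected by Agilent Feature Extraction 10.5.1.1, per the file headers. The authors' deposited table gives log2 values for 41265 probes; it served as an alternative, and its per-column medians were -2.68 for lung and -2.75 for esophagus. Its scale and direction matched the scanner values (r = 0.9991 and 0.9998 over probes), and its exact centring is not stated.

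Control and outlier spots were left out, repeated spots averaged, and each array's 75th percentile subtracted on the log2 scale with Python 3.11.15, numpy 2.4.6 and pandas 2.3.3. No spot was saturated. Of 41174 probes, 24432 were named through RefSeq accession or symbol. For 5657 genes with several probes, the probe with the highest mean over both arrays stands for the gene. Disagreements are given beside some genes and not all. Gria4, for example, differed by 8.11 on the probe used and by -1.78 on another, and Fzd10 by -6.31 and -4.46. Named genes are the largest differences on each side and the members of the gene lists. Members and lists were chosen with earlier results of these data known. limma 3.58.1 (R 4.3.3) served for the normexp alternative, and the quantile alternative was computed in Python. The calculation was run on simulated data, the esophagus array against itself with small added noise and known changes. That run bears on the calculation alone, since it holds no flagged spots, no other organ and no spread between probes. Of 17047 named genes, 181 had only outlier spots, among them Krt14 and Adipoq. A few genes are not reported here.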

Additional observations from a re-analysis of the deposited data

How the results depend on the processing

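No paired analysis was possible because each organ has 1 array. The counts of genes past 4-fold, 1155 for lung and 1120 for esophagus, stayed within 1.5 times of these values under every alternative scaling, filter and probe rule except normexp background correction, which gave 723 for lung (841 for esophagus). At 2-fold they were 2509 and 2551. The lung share of the genes past 4-fold ranged from 46.2% with normexp to 53.2% with only genes above background on both arrays. Of 536 list medians over the alternatives, 385 moved little, 149 moved and 2 reversed: with only genes above background on both arrays, the desmosome median was 0.21 and the matrix metalloproteinase median -0.27, since the bounds leave the lists. Of 4203 values for 543 named genes, 423 moved, 249 of them under normexp, and 1 reversed: without spots beside flagged ones, an alternative chosen after seeing the data, Cyp2c40 was -1.10. With 1 array a side, no value carries an error between animals.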

Other observations

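Of 37 collagen chains, 8 were at least 2-fold higher in lung, against 17.3% of all genes, and 16 in esophagus, against 17.6% (median -0.83). The basement membrane chains Col4a3 (0.37 in lung and -5.74 in esophagus) and Col4a4 (2.46 and -0.17) were higher in lung, as were the general chains Col4a1 (3.92 and 2.45) and Col4a2 (3.90 and 2.03). The anchoring fibril collagen Col7a1 (1.05 and 4.09) and Col8a1 (1.97 and 5.00) were higher in esophagus, as were Col15a1 (-1.88 and 1.24) and Col17a1 (-3.61 and 3.14), which also belong to the basement membrane zone. Of the Hox genes, which mark position along the body axis, 6 of 20 were higher in lung and 5 in esophagus (median 0.07), somewhat above the 17.3% and 17.6% of all genes. Without spots beside flagged ones, 4 of 17 were higher in lung and 5 in esophagus, with a median of 0.0. Hoxa5, needed for lung development, was 0.39 and -1.73, while Hoxa9 was -4.39 and -1.37 and Hoxd4 was -3.88 and -1.07. Hoxb5 differed by 3.64 on an esophagus spot beside flagged ones.

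Immediate early genes, which many stimuli induce rapidly, were higher in lung for 9 of 14 and in esophagus for 1 (median 1.53). The shares of all genes were 17.3% and 17.6%. Without spots beside flagged ones, 9 of 13 were higher in lung and 1 in esophagus. Fos was 1.76 and -0.47 and Egr1 2.55 and 0.96, while the heat shock gene Hspa1a was 0.80 and 3.43. Glycolysis and hypoxia genes went the other way, with 7 of 14 higher in esophagus and 2 in lung (median -1.32). Without spots beside flagged ones, 6 of 13 were higher in esophagus and 2 in lung, with a median of -0.97. Egln3, a hydroxylase of the hypoxia response, was -4.18 and 2.39, while Epas1, an endothelial hypoxia factor, was 0.34 and -3.31. Of 22 cell cycle genes, 4 were higher in esophagus, near the 17.6% of all genes, and none in lung.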
